A study of Arabidopsis thaliana with 12 samples.

Results

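UBA1A and AT3G08000 are 2 nuclear Arabidopsis genes for RNA-binding proteins, each read by 1 probe of the array. They were found as the rows that the platform annotation gives to UBA1A alone (locus AT2G22090, chromosome 2) or to AT3G08000 alone (chromosome 3), which are 2 of 692 single-gene probes and 2 of 3439 probes in all. Both genes were chosen by their measured values, as genes whose signal was lower in ascorbate than in water in an earlier look at these same arrays. Their ascorbate and water values are therefore given as a description, without a test.

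Total RNA of wild-type Arabidopsis thaliana, ecotype Columbia 0, was hybridised to 12 one-channel arrays. The 6 ascorbate samples had 4 h in water and then 4 h in 25 mM ascorbate at pH 5.5, and the 6 water samples had 8 h in water. Water thus preceded ascorbate in the treated plants, and all plants spent the same total time in solution. The labels give no tissue, plant age, pooling scheme or pH of the water, and no control that changed solution without ascorbate, so ascorbate, pH, solute load and the change of solution cannot be told apart. They number samples 1 to 6 in each group without saying whether the numbers are separate plants or repeat readings, so p-values and spreads may reflect technical variation.

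UBA1A stands for UBP1-associated protein 1A. UBP1 is a nuclear protein of plants that binds uridine-rich stretches of RNA, and UBA proteins were found as its partners. Such proteins commonly hold RNA through the RNA-recognition motif, a compact fold that lays single-stranded RNA across a sheet. Proteins of this kind act in splicing, stability and translation of transcripts, and in plants they also work inside chloroplasts and mitochondria. AT3G08000 is annotated as a protein with such a motif. The RefSeq gene table lists 2 transcripts and 2 proteins for UBA1A, against 1 transcript and 1 protein for AT3G08000, so the single UBA1A probe gives 1 value for what may be several forms.

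In that table (assembly TAIR10.1, used for names and neighbours only) UBA1A overlaps the protein-coding locus AT2G22088 and the long non-coding RNA locus AT2G07515. AT3G08000 overlaps SCPL27, and the next gene after it is ATAB2. The sources used here do not say which strand or which part of a gene a probe reads, so signal from an overlapping transcript cannot be told apart from that of the named gene.

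The values are intensities on a relative linear scale, with the brightest probe at or under 100 on every array. The median intensity was 0.252 and 0.259 on ascorbate arrays 1 and 2, against 0.383 to 0.419 on ascorbate arrays 3 to 6 and 0.405 to 0.485 on the 6 water arrays. Between 11.5% and 14.2% of the probes of an array were listed at 0. The UBA1A and AT3G08000 probes were above 0 on all 12 arrays, and above the low-value floor used here (the 1st percentile of an array's positive values, at most 0.0545) on each of them. Across the 3266 probes above 0 on at least 1 array, limma called 559, or 17.1%, at an adjusted p under 0.05. Of these, 318 (9.74% of the tested probes) were higher and 241 (7.38%) lower in ascorbate, a split that was 91 to 328 on the intensities as deposited and 360 to 135 after median centring of the arrays. The count was 796 (24.4%) with a term for the replicate number in the fit, and 1 when consecutive numbers (1 and 2, 3 and 4, 5 and 6) were averaged before the fit. Across the tested probes, deviations from the group means correlated between consecutive numbers at 0.088, 0.30 and 0.74 in ascorbate, and at 0.24, 0.19 and 0.73 in water. Among these consecutive pairs, ascorbate samples 1 and 2 had the lowest correlation, although their array medians were close.

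UBA1A was lower in ascorbate on every array of that group. Its deposited intensity in the 6 ascorbate samples had a lowest value of 0.138, a median of 0.376 and a highest value of 0.606, against a lowest value of 0.786, a median of 0.883 and a highest value of 1.03 in the 6 water samples. The groups did not overlap. The brightest ascorbate sample was number 3 and the dimmest number 1, while water sample 1 was the brightest of its group. Mean deposited intensity was 0.385 ± 0.173 in ascorbate and 0.893 ± 0.0912 in water (SD, n = 6 each), so water stood 2.32 times as high as ascorbate.

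AT3G08000 was also lower in ascorbate on every array of that group. Its deposited intensity in ascorbate had a lowest value of 0.0591, a median of 0.210 and a highest value of 0.304, against a lowest value of 0.396, a median of 0.478 and a highest value of 0.570 in water. Here too the groups did not overlap. The dimmest arrays were ascorbate samples 1 and 2, and ascorbate samples 3 and 4 lay nearest to water. Mean deposited intensity was 0.196 ± 0.102 in ascorbate and 0.486 ± 0.0723 in water (SD, n = 6 each), and water stood 2.48 times as high as ascorbate.

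**Figure D1:**
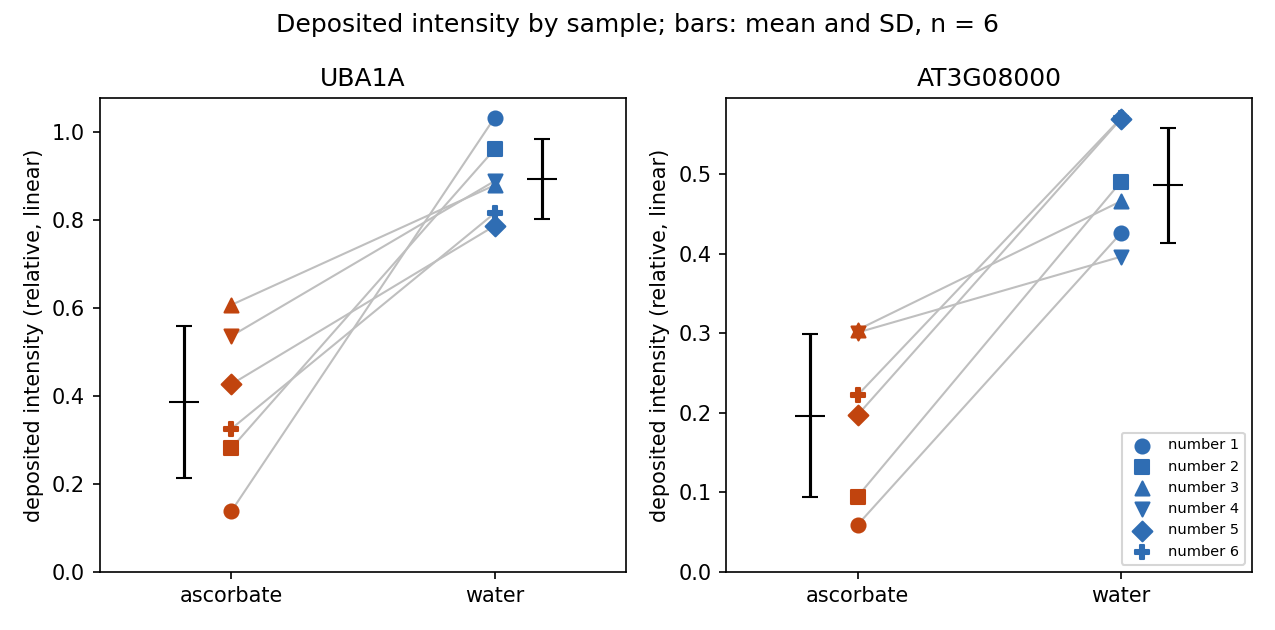
Deposited intensity (relative, linear) of UBA1A, left panel, and AT3G08000, right panel, in the 6 ascorbate and 6 water samples. Each symbol is a replicate number, grey lines join the same number in both groups, and bars give the mean and SD. All ascorbate points lie below all water points, with a highest ascorbate value of 0.606 and a lowest water value of 0.786 for UBA1A, and of 0.304 and 0.396 for AT3G08000.

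Non-overlap of this kind was not rare on these arrays. As deposited, all 6 ascorbate values lay under all 6 water values for 297 of the 3266 tested probes, or 9.09%, and after quantile normalization for 133, or 4.07%. Both genes met that description on either scale, which follows from how they were chosen and is no support for a change in them.

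After quantile normalization, which gives each array the same distribution of values, UBA1A averaged -1.30 ± 0.49 log2 intensity in ascorbate and -0.27 ± 0.16 in water (SD, n = 6 each). The log2 difference was -1.04 ± 0.20 (SE of the limma fit). AT3G08000 averaged -2.27 ± 0.49 in ascorbate and -1.23 ± 0.19 in water (SD, n = 6 each), a log2 difference of -1.04 ± 0.21 (SE). With the 25th percentile of an array's positive values added before log2, which shrinks differences of dim probes by construction, the difference of AT3G08000 was -0.55 ± 0.10 (SE). Without that offset, the ratio of water to ascorbate on the normalized scale was 2.05 for UBA1A and 2.06 for AT3G08000, and the mean changes of the genes differed by less than their SE. Of the 653 tested single-gene probes, 25 had a lower log2 difference than AT3G08000 and 27 a lower one than UBA1A. Among all tested probes, 3.98% were as low as UBA1A and 3.92% as low as AT3G08000, beside a median log2 difference of all tested probes of 0.001.

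**Figure D2:**
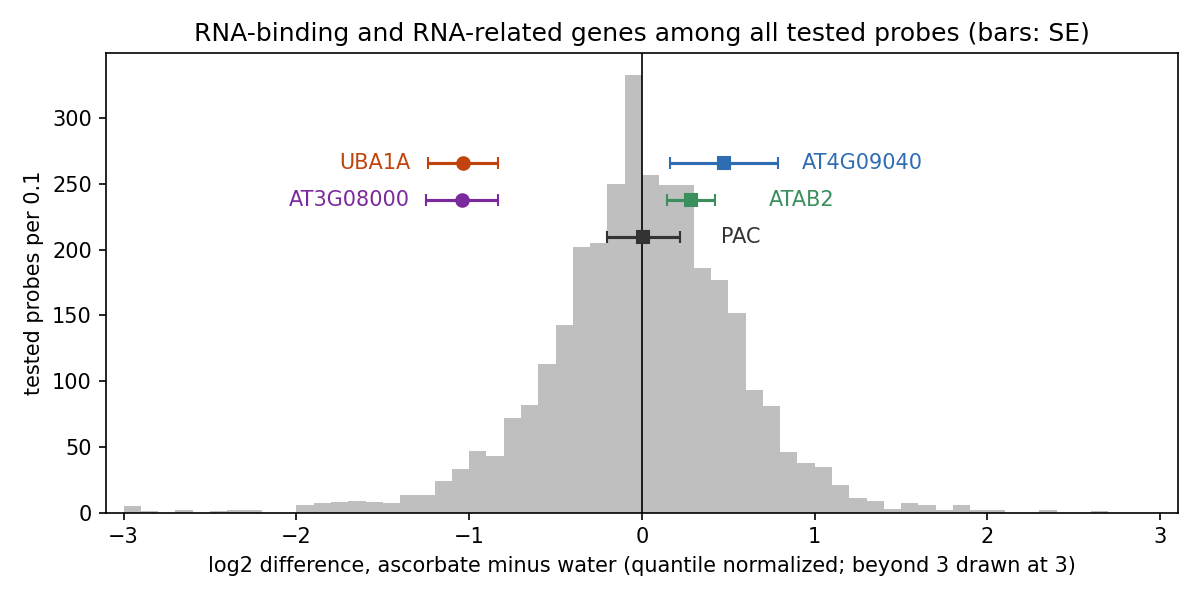
Histogram of the log2 difference, ascorbate minus water, of all 3266 tested probes after quantile normalization, with 5 RNA-binding or RNA-related genes marked at their value with the SE of the fit (their height in the plot has no meaning). UBA1A and AT3G08000 both lie at -1.04, in the lower tail, and AT4G09040, ATAB2 and PAC lie at 0.47, 0.28 and 0.01.

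The same values can be given as each gene's place on its own array, which needs no scaling between arrays. This place restates the signal by which the genes were chosen and is no further support for a change. UBA1A stood between the 35.5th and the 66.7th percentile of the 3439 probes on ascorbate arrays, with a median at the 51.4th, against the 71.8th to the 80.1st on water arrays, with a median at the 78.6th. AT3G08000 stood between the 22.5th and the 42.1st percentile on ascorbate arrays, with a median at the 28.2nd, against the 46.0th to the 57.7th on water arrays, with a median at the 53.4th. The percentiles of the 2 groups did not overlap for either gene. The share of all probes without overlap was not computed for percentiles. On the normalized scale, 4.07% of tested probes were lower in ascorbate without overlap. The gap between the groups was 5.09 percentile points for UBA1A and 3.90 for AT3G08000, narrow beside the range within ascorbate.

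**Figure D3:**
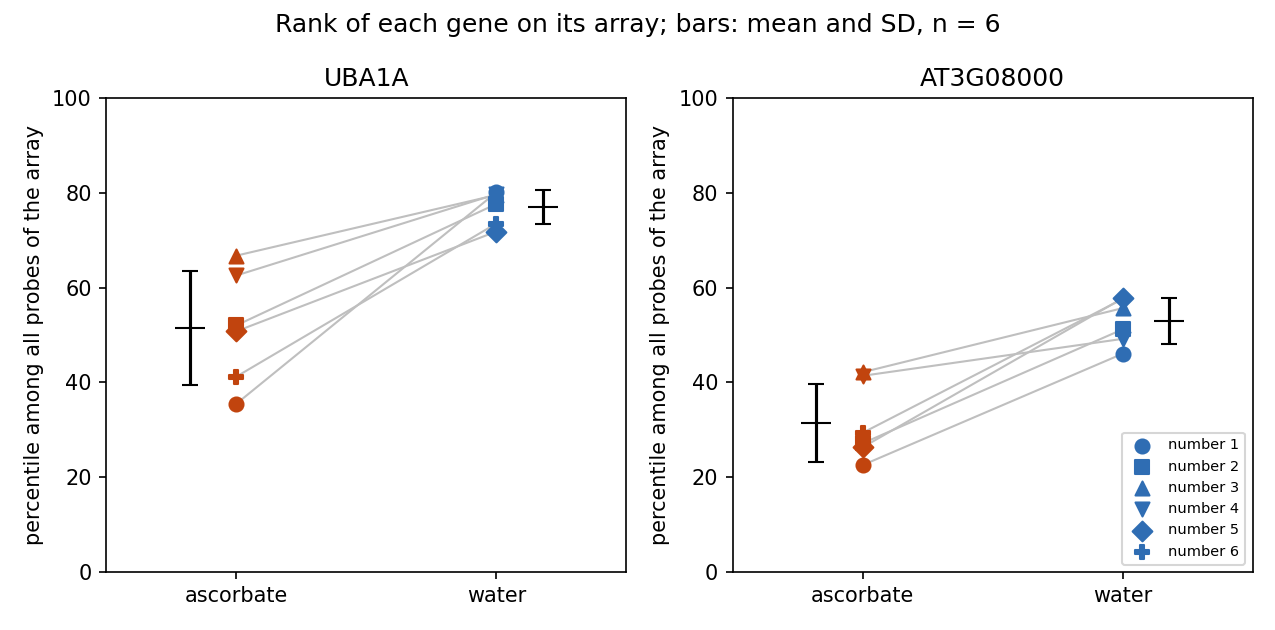
Percentile of UBA1A, left panel, and AT3G08000, right panel, among the 3439 probes of each array, in ascorbate and water, with symbols for the replicate number, lines joining the same number, and bars for mean and SD. The ascorbate points spread over 35.5 to 66.7 for UBA1A and 22.5 to 42.1 for AT3G08000, and the water points over 71.8 to 80.1 and 46.0 to 57.7.

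Taken by replicate number, ascorbate was below water in 6 of 6 numbers for both genes, as deposited, centred and normalized. This had to be so, as the groups do not overlap on any of these scales, and it is no further support for a change. The size varied widely. As deposited, water stood 7.49 and 3.42 times as high as ascorbate for UBA1A in numbers 1 and 2, 1.45 and 1.66 times in numbers 3 and 4, and 1.84 and 2.51 times in numbers 5 and 6. For AT3G08000 the ratio of water to ascorbate was 7.20 and 5.17 in numbers 1 and 2, 1.53 and 1.32 in numbers 3 and 4, and 2.89 and 2.57 in numbers 5 and 6. Numbers 3 and 4 gave the smallest drop of both genes, and number 1 the largest as deposited.

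Array medians moved with part of this pattern. Ascorbate arrays 1 and 2, where the deposited drop was largest, had the lowest array medians, at 0.252 and 0.259. Their summed intensities were not low. These were 3450.9 and 3490.3, against 3544.5 and 3562.2 on water arrays 1 and 2 and 3053.6 to 3251.3 on arrays 3 to 6 of both groups. The part that array medians had in the size of the drop was not tested. After quantile normalization, the difference of UBA1A was -1.86 and -1.01 in numbers 1 and 2, -0.55 and -0.72 in numbers 3 and 4, and -0.81 and -1.27 in numbers 5 and 6. AT3G08000 differed by -1.40 and -1.19 in numbers 1 and 2, by -0.55 and -0.32 in numbers 3 and 4, and by -1.51 and -1.28 in numbers 5 and 6. The largest normalized drop of AT3G08000 was therefore in number 5, not number 1, whereas for UBA1A it stayed in number 1. Without ascorbate samples 1 and 2 the log2 difference was -0.83 ± 0.18 for UBA1A and -0.78 ± 0.18 for AT3G08000 (SE). Leaving out these samples was chosen after seeing the data.

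**Figure D4:**
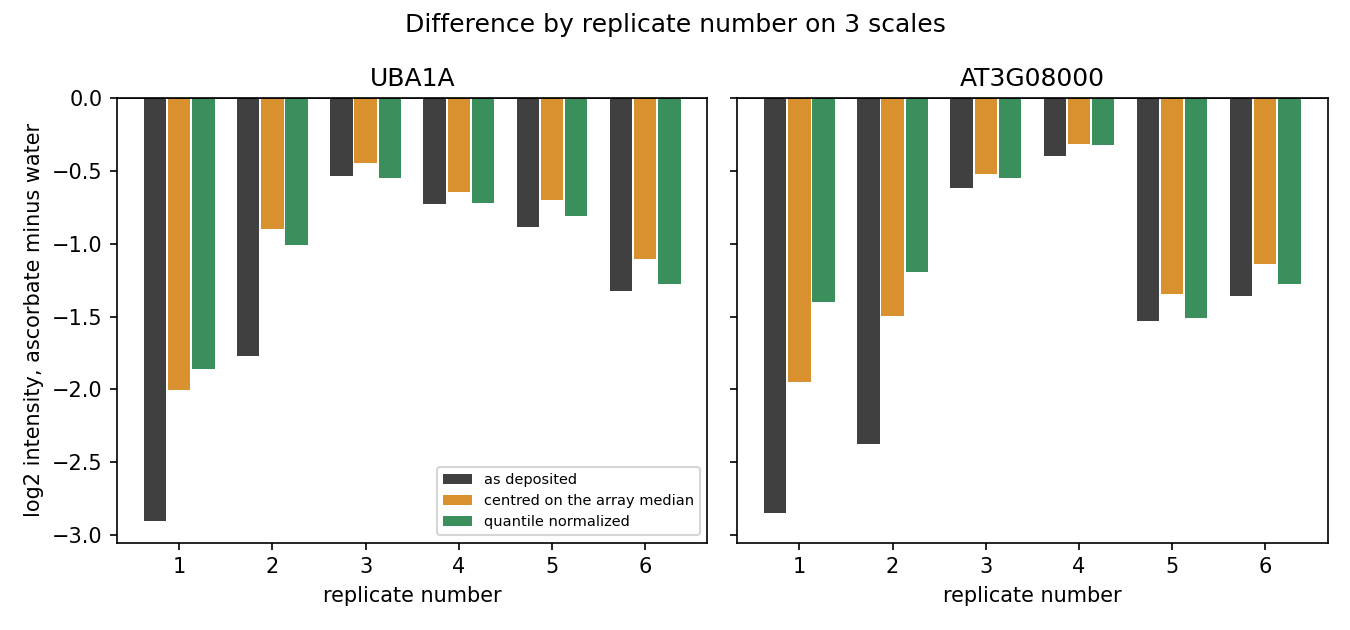
Log2 intensity, ascorbate minus water, for each replicate number on 3 scales, for UBA1A, left panel, and AT3G08000, right panel. All 36 bars lie below 0, as they must where the groups do not overlap. Deposited bars reach -2.91 and -2.85 in number 1, and numbers 3 and 4 have the shortest bars of each gene on every scale.

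Averaged over consecutive numbers, the normalized difference of UBA1A was -1.44 in numbers 1 and 2, -0.64 in numbers 3 and 4, and -1.04 in numbers 5 and 6. AT3G08000 gave -1.30, -0.44 and -1.40 in the same order. The whole array moved least in the middle pair too. The median absolute log2 difference of all tested probes was 0.49 in numbers 1 and 2, 0.31 in numbers 3 and 4, and 0.36 in numbers 5 and 6. Set against the tested probes of the same pair, 5.79%, 11.5% and 5.27% of probes were as low as UBA1A, and 6.64%, 18.2% and 2.36% as low as AT3G08000. In numbers 3 and 4 both genes were thus nearer to the bulk of the array than in the other pairs.

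The ascorbate samples varied more than the water samples. On the normalized log2 scale the SD of UBA1A was 2.97 times as large in ascorbate as in water, and that of AT3G08000 was 2.56 times as large, where the median of this ratio over tested probes that varied in both groups was 1.28. Of the tested probes that varied in water, 12.4% had a ratio as high as UBA1A and 16.6% one as high as AT3G08000. Probes that varied in ascorbate alone were not counted in these shares.

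The signals of the 2 genes can also be set against each other within single arrays. As both were chosen for a lower ascorbate signal, this is a description. The log2 ratio of the deposited UBA1A to the deposited AT3G08000 signal was 1.05 ± 0.35 in ascorbate and 0.88 ± 0.33 in water (SD, n = 6 each). Multiplying an array by a factor does not change this ratio, but quantile normalization does. By number, the change of the deposited log2 ratio averaged 0.16 ± 0.38 (SD over 6 numbers), less than its own spread, and it was 0.60 in number 2 and 0.65 in number 5. UBA1A was the further lowered of the genes in 2 of the 6 numbers, 1 and 4.

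Few other genes for RNA-binding proteins were set beside them. They were sought by a fixed list of loci and by words in gene symbols and synonyms, as the gene table used held no descriptions. Other genes for RNA-binding proteins on the array may thus have been missed. Of 38 loci listed for UBP1 and its partners, the RBP45 and RBP47 family, glycine-rich RNA-binding proteins, chloroplast ribonucleoproteins and poly(A)-binding proteins, 1 had a single-gene probe, AT4G09040, which was listed with the chloroplast ribonucleoproteins. The other UBP1 and UBA genes of the list had none. ATAB2, an RNA-binding protein that promotes translation of photosystem proteins in chloroplasts, and PAC (PALE CRESS), a plastid protein that binds ribosomal RNA and is needed for plastid ribosomes, were added because the array held them. Of these 3 genes, 0 were called higher and 0 lower by limma (adjusted p over 3266 probes, background 17.1%), and 0 had an unadjusted p under 0.05, where 1006 of the 3266 tested probes (30.8%) had one. Their median log2 difference was 0.28, beside 0.001 for all tested probes.

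AT4G09040 overlapped between the groups. Its deposited intensity in ascorbate ran over 0.136, 0.353 and 0.516 (lowest, median and highest), against 0.154, 0.349 and 0.504 in water. Sample 2 was the dimmest in each group. The normalized log2 difference was 0.47 ± 0.31 (SE, limma adjusted p 0.33), with ascorbate higher than water in 6 of 6 numbers on that scale but lower as deposited in 2 of them. With a block for the replicate number, the same difference had an SE of 0.13 and a limma adjusted p of 0.047. That call was not made with consecutive numbers averaged (limma adjusted p 0.46) or with a random block for them (limma adjusted p 0.80), and over all 31 alternatives the adjusted p ran over 0.047 to 0.99. Without water sample 2 the log2 difference was 0.24 (limma adjusted p 0.56). As deposited the log2 difference was 0.01 (limma adjusted p 0.99), so its size depends on the normalization.

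ATAB2 is the gene next to AT3G08000. Its deposited intensity in ascorbate ran over 0.210, 0.241 and 0.318 (lowest, median and highest), against 0.217, 0.295 and 0.348 in water. The groups overlapped. The normalized log2 difference was 0.28 ± 0.14 (SE, limma adjusted p 0.19), and -0.17 as deposited (limma adjusted p 0.49), so its sign turned with the scaling. AT3G08000 itself stood at -1.04 normalized and -1.52 as deposited, and the difference between these neighbours was not tested.

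PAC split by number. Its deposited intensity in ascorbate ran over 0.297, 0.480 and 0.607 (lowest, median and highest), against 0.498, 0.517 and 0.602 in water, with ascorbate samples 3 and 4 the dimmest. The normalized log2 difference was 0.01 ± 0.21 (SE, limma adjusted p 1), made up of 0.39 in numbers 1 and 2, -0.69 in numbers 3 and 4 and 0.32 in numbers 5 and 6. As deposited these were -0.25, -0.75 and 0.13, so the sign in numbers 1 and 2 turned with the scaling. On both scales PAC was lower in ascorbate in numbers 3 and 4, in which UBA1A and AT3G08000 dropped least. As deposited the log2 difference over all numbers was -0.29 (limma adjusted p 0.32).

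The single-gene probes most like each gene were sought by Pearson's r over the 12 normalized log2 values, among the 548 others above 0 on all arrays. Much of such an r comes from the ascorbate and water difference itself, so r of the deviations from the group means is given beside it, and all points share arrays and their scaling. For UBA1A the highest r values were those of AT1G07040 at 0.97, AT4G29890 at 0.91, AILP1 at 0.91, AT3G08000 at 0.91 and AT1G74070 at 0.88. Within groups these were 0.88, 0.65, 0.76, 0.69 and 0.71. AT3G08000 had rank 4 of 548 for UBA1A, and rank 53 within groups.

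For AT3G08000 the highest r values were those of AT1G07040 at 0.95, AT4G29890 at 0.94, AT2G40980 at 0.94, AT3G52960 at 0.93 and AT2G30320 at 0.93. Within groups these were 0.82, 0.81, 0.81, 0.94 and 0.73. UBA1A had rank 7, at 0.91, and rank 51 within groups. AT1G07040 headed both lists, with a log2 difference of -1.32 ± 0.22 (SE), and AT4G29890 was second in both, at -0.53 ± 0.08. AT3G52960 was the closest of the 548 to AT3G08000 within groups, with a log2 difference of -0.79 ± 0.29 (SE).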

How the data were processed

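Each of the 12 samples had 1 column of deposited intensities for 3439 probes. Which scanner, background correction and scaling the authors used is not given in these sources. From the deposited intensities, values at or under the 1st percentile of an array's positive values were raised to it, log2 was taken, and arrays were quantile normalized. The fit did not use 173 probes that were at 0 throughout. Ascorbate was compared with water by lmFit and eBayes (limma 3.58.1, R 4.3.3), two-sided, with Benjamini-Hochberg adjustment over 3266 probes and a threshold of 0.05. The fit was tested on simulated data with independent noise in each sample. That simulation does not cover the correlations between samples found here. The number of arrays limits the precision.

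The platform annotation gave 1 gene for 692 probes, several for 870 and none for 1877. A RefSeq locus was found for 690 of the 692.

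The members and gene lists were chosen with earlier results of these data known, and ATAB2 and PAC were added once the array's contents were known. Named were the 2 members, the RNA-binding genes that the list found or that were added, and the 5 single-gene probes with the highest r to each member. The comparison was fitted without a block. To check the pairing, each sample's deviations from its group mean were correlated over the tested probes. Same-numbered samples correlated at 0.35, 0.36, 0.56, 0.56, 0.53 and 0.53, so by a limit of 0.1 the labels' numbers pair the samples. Among samples of the other group, all 12 correlated best with their own number. The main calls leave this pairing out, and the fit with a replicate block is given as an alternative. Alternatives changed normalization, low values, probe filter, blocks and the samples used.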

Additional observations from a re-analysis of the deposited data

How the results depend on the processing

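UBA1A and AT3G08000 were lower in ascorbate in all 31 alternatives run, at -1.36 to -0.71 and -1.52 to -0.55 on the log2 scale. Both were chosen as lower on these arrays and their groups do not overlap, so the shared sign is no support for a change. Changing the probe filter or the blocks could not alter either difference. Leaving out 1 sample or 1 replicate number gave -1.16 to -0.85 for UBA1A and -1.18 to -0.89 for AT3G08000. AT3G08000 moved by more than its replicate spread of 0.37 in 2 alternatives, to -1.52 as deposited and to -0.55 with the 25th percentile added before log2, an offset that shrinks differences of dim probes by construction. As deposited, the median of all tested probes was -0.35, and relative to it UBA1A stood at -1.01 and AT3G08000 at -1.17. With the replicate number as a block, the pairing left both differences at -1.04 with SE of 0.18 and called 796 probes (24.4%) in place of 559. It called 1 of the 3 other RNA-binding genes named here, AT4G09040, in place of 0. With consecutive numbers averaged or given a random block that count was 0 again. Those fits called 1 and 148 of all 3266 tested probes, so 0 of 3 genes says little about them.

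The 559 calls over all probes fell to 1 with consecutive numbers averaged, to 148 with a random block for them and to 253 without numbers 5 and 6, and ranged over 315 to 579 without 1 sample or 1 replicate number, lowest without number 5 (315) or number 6 (319). The number of probes called thus depends on how the fit treats consecutive numbers. The averaged fit also has fewer samples, and the cause of these changes was not tested. ATAB2 turned to -0.17 as deposited. PAC, at 0.01, turned to -0.29 as deposited, -0.17 without numbers 1 and 2, -0.16 without numbers 5 and 6 (but 0.36 without numbers 3 and 4) and -0.21 without ascorbate samples 1 and 2 (an alternative chosen after seeing the data), and ranged over -0.13 to 0.15 without 1 sample or 1 replicate number. None of these PAC or ATAB2 values passed the threshold. Signal over background could not be judged, since no background values were used here.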
